A study of Mus musculus with 8 samples.

Results

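The genes described here encode the proteins that start and extend the translation of mRNA and those that load tRNAs with amino acids. They were chosen by name alone, as the listed genes named Eif1 to Eif6, Eef1 or Eef2, together with those named as aminoacyl-tRNA synthetases. There were 84 such genes among 16434 listed. By role they were 36 initiation factors (without inhibitors), 8 elongation factors and their modifying enzymes, 20 cytosolic and 15 mitochondrial synthetases, and 5 inhibitors of these steps. The names mostly fit that description, but not fully. Eef1akmt1 and Eef2kmt encode methyltransferases acting on elongation factors, Eef1e1 a scaffold of the multi-synthetase complex, and Eif1ad a protein named for its eIF1A-type domain. The roles were fixed as 106 gene names, of which 22 had no row and are not analysed here, among them Eif5, Eif6, Eif2ak1, Eif4ebp2 and Eif4ebp3.

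RNA-seq was done on 8 libraries of bone marrow cells from C57BL/6 mice of 8 to 10 weeks, 1 library per group. The leukaemias arose with N-Myc overexpression, per the series title, and were sorted as GFP-positive cells: B-ALL (B220+GFP+), T-ALL (CD3+GFP+), AML (Mac1+Gr1+GFP+) and AUL (undifferentiated, B220-CD3-Mac1-Gr1-GFP+). Their counterparts from normal bone marrow, without GFP, were B cells (labelled B_cell), T cells (T_cell), myeloid cells (Myeloid_cell) and lineage-negative cells (lineage_cell). The labels do not give the vector or promoter that drives N-Myc, nor whether a library pools mice. All 8 libraries are therefore single samples, and a difference within a gate has no replicate check and no p-value.

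Translation begins when a small ribosomal subunit, carrying initiator tRNA bound to eIF2 and helped by eIF1, eIF1A and eIF3, is recruited by the cap-binding complex of eIF4E, eIF4G and the helicase eIF4A. Elongation factor eEF1A then delivers charged tRNAs, eEF2 moves the ribosome along and eIF5A relieves stalls. Cells restrain the process through proteins that sequester eIF4E, kinases that phosphorylate eIF2 under stress, and a kinase that inactivates eEF2. Genes of this machinery are known as targets of MYC family transcription factors, which is why their transcript levels are of interest in leukaemias with N-Myc overexpression.

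Total fragments per library, recovered from the steps of the FPKM values, were 33818590 to 43206635 in the leukaemias and 37000642 to 52280306 in the normal populations. FPKM scales fragments by transcript length and by the total mapped in the library. Marker levels departed from the gates in some libraries. Itgam, which encodes Mac1, had 1.63 FPKM in AML against 208 FPKM in normal myeloid cells, and 5 T cell markers summed to 1264 FPKM in AUL against 65.6 FPKM in normal lineage-negative cells. The normal lineage-negative library also held 2505 FPKM of 4 basophil and mast cell markers and 608 FPKM of 5 B cell markers. Normal T cells held 610 FPKM of the same B cell markers and 500 FPKM of the basophil and mast cell markers. Normal B cells held 1385 FPKM of 3 plasmacytoid dendritic cell markers. B-ALL held 7483 FPKM of myeloid markers, against 1910 FPKM in normal B cells. What such mixtures contribute to the levels below was not tested, and in bulk samples fewer cells of a type and less RNA per cell cannot be told apart.

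Transcripts of the translation machinery were more abundant in the leukaemias than in the normal populations, by amounts that depended strongly on which normal population was set against them. The median member had 70.6 FPKM in B-ALL and 78.3 in T-ALL, with 69.1 in AML and 97.5 in AUL, against 42.1 FPKM in normal B cells, 37.4 in T cells, 18.4 in myeloid cells and 51.5 in lineage-negative cells. All 4 leukaemia medians lay above all 4 normal ones. The members together took 3.93%, 4.74%, 4.03% and 4.58% of the listed FPKM in the B-ALL, T-ALL, AML and AUL libraries, against 2.90%, 3.94%, 0.913% and 3.07% in normal cells of the B, T, myeloid and lineage-negative gates. Eef1a1 made up a large part of these shares. Without it they were 2.67%, 2.91%, 2.69% and 2.88% in the leukaemias, against 1.66%, 1.84%, 0.644% and 1.79%. The leukaemias differed little among themselves, with a median SD of the members over the 4 leukaemias of 0.29 on the log2(FPKM + 1) scale, whereas over the 4 normal populations it was 0.74. Over all genes tested the median SD was 0.50 among leukaemias and 0.75 among normal populations. Most of the spread among normal populations came with the myeloid library, and without it the members' median SD was 0.30.

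The normal myeloid library had the lowest value of the 8 libraries for 73 of the 84 genes, which was the case for 36.7% of the genes tested. The highest value lay in a leukaemia for 75 members, in B-ALL for 13, in T-ALL for 13, in AML for 19 and in AUL for 30. Over the genes tested the highest value lay in those libraries for 10.6%, 13.2%, 14.7% and 11.4%, so the B-ALL and T-ALL counts are near the background. The members with their highest value in a normal population were Eef1a1, Eif1, Eif4a2 and Eif5a2 in T cells, Eif2ak3 and Wars2 in B cells, Eef2k and Eif2ak2 in lineage-negative cells and Eif4e3 in myeloid cells. Of these 9 genes, 3 are inhibitory kinases (Eif2ak3, Eef2k and Eif2ak2) and 3 (Eif4a2, Eif4e3 and Eif5a2) are paralogues of other members.

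**Figure D1:**
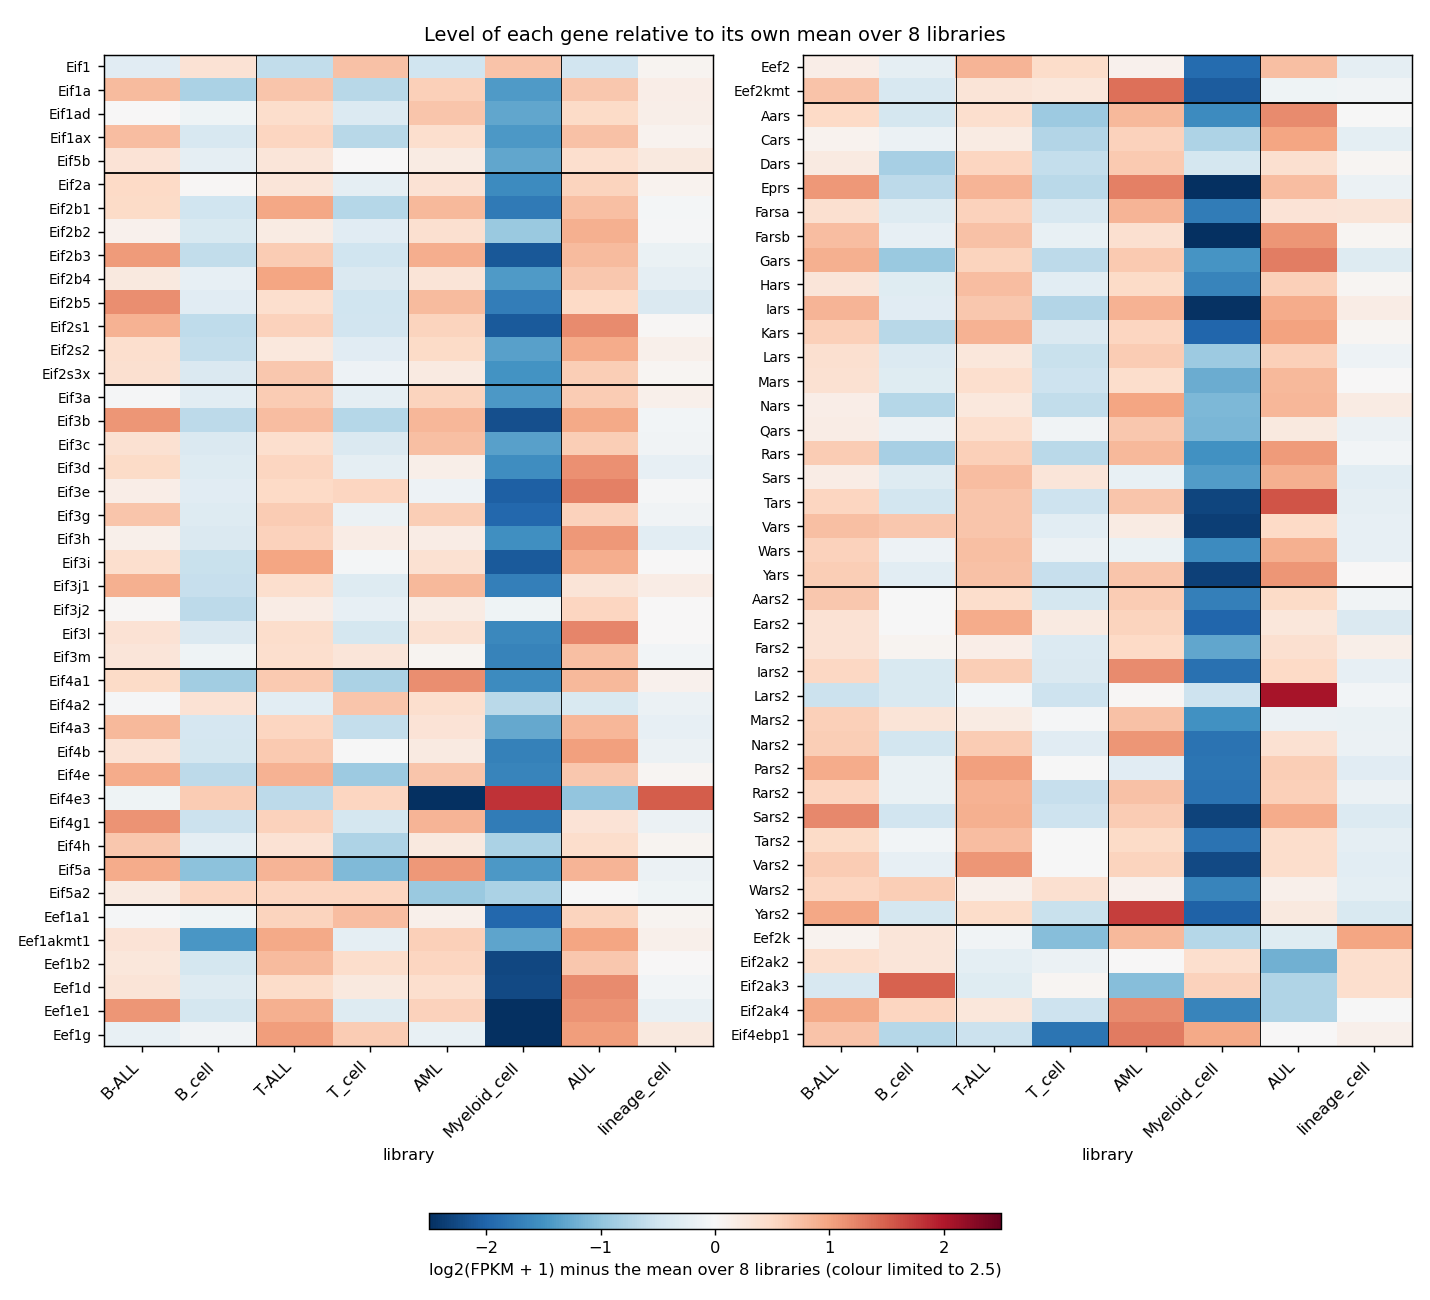
Heat map of log2(FPKM + 1) of 83 of the genes, each minus its own mean over the 8 libraries, with genes in rows grouped by role and each leukaemia left of its normal population. The normal myeloid column is the lowest for most of the genes shown, and Eif4e3, Eif1, Eif2ak3 and Lars2 show patterns unlike the rest.

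Across the 4 pairs of leukaemia and normal population, 69 of the 84 genes were higher in the leukaemia every time, against 25.9% of the 11071 genes tested. For 56 members all 4 leukaemias lay above all 4 normal populations, against 16.0% of genes tested, and for 3 members (Eif4e3, Eif2ak3 and Eif1) all 4 lay below, against 10.5%. The median of the members' mean log2 differences was 1.11, beside -0.08 over all genes tested. Members at least 2-fold higher in every gate numbered 8 of 84, against 2.55% of genes tested: Gars, Rars, Sars2, Eef1e1, Eif2s1, Eif3b, Eif4a3 and Eif5a. The 4 leukaemias are different diseases, so these figures describe what the pairs share.

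With 4 pairs and 3 residual degrees of freedom, few single genes passed a test adjusted over all genes. In limma with the gate as a block, 1 of 84 members was higher and 0 were lower at an adjusted p under 0.05. The higher share, 1.19%, is near the background of 1.26% of genes tested, and 2.42% of genes tested were lower. At an unadjusted p under 0.05 there were 56 members higher and 3 lower, against 17.6% and 17.8% of genes tested, and 42 members had an adjusted p between 0.05 and 0.1. The count of called genes moved with the settings, to 13 of 84 with median-ratio scaling, where 351 of 10989 genes were called higher, and to 0 when any pair was left out, including the myeloid one, where 0 to 11 genes in all were called higher. With median-ratio scaling the median over all genes was -0.25 and that of the members 0.89. Markers of dividing cells (Mki67, Top2a, Ccnb1 and Aurka) summed higher in each leukaemia. In the B-ALL, T-ALL, AML and AUL libraries their sum was 863, 624, 496 and 638 FPKM. The matching normal populations had 510.2, 133, 330 and 596 FPKM. None of them is at 0 in any library, and 3 of 4 were higher in all 4 pairs. The exception, Mki67, was lower in AML (80.8 against 92.0 FPKM) and in AUL (129 against 136 FPKM). The part of these markers in the result was not tested.

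The gene that passed was Gars, the glycyl-tRNA synthetase, which loads glycine in both the cytosol and the mitochondrion (ENSMUSG00000029777, chr6:55038007-55079500 in mm10). Its level was 189 FPKM in B-ALL and 149 in T-ALL, with 159.5 in AML and 248 in AUL, against 52.5 FPKM in normal B cells, 64.3 in T cells, 35.9 in myeloid cells and 80.3 in lineage-negative cells. The lowest leukaemia stood above the highest normal population. The mean log2 difference was 1.69 ± 0.39 (SD over 4 pairs) with a limma standard error of 0.33 and an adjusted p of 0.0428. By pair it was 3.60-fold higher in B-ALL, 2.32-fold in T-ALL, 4.45-fold in AML and 3.09-fold in AUL, each resting on 2479 fragments or more per library. Its limma adjusted p ran from 0.0347 to 0.124 over the other settings. It stayed under 0.05 only with a pseudocount of 0.1 (0.0347) and with median-ratio scaling (0.0401). Gars was not the member with the largest mean difference. Members above it had larger SDs over the pairs, Eprs having a mean of 1.98 ± 1.23 with a limma adjusted p of 0.0596.

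**Figure D2:**
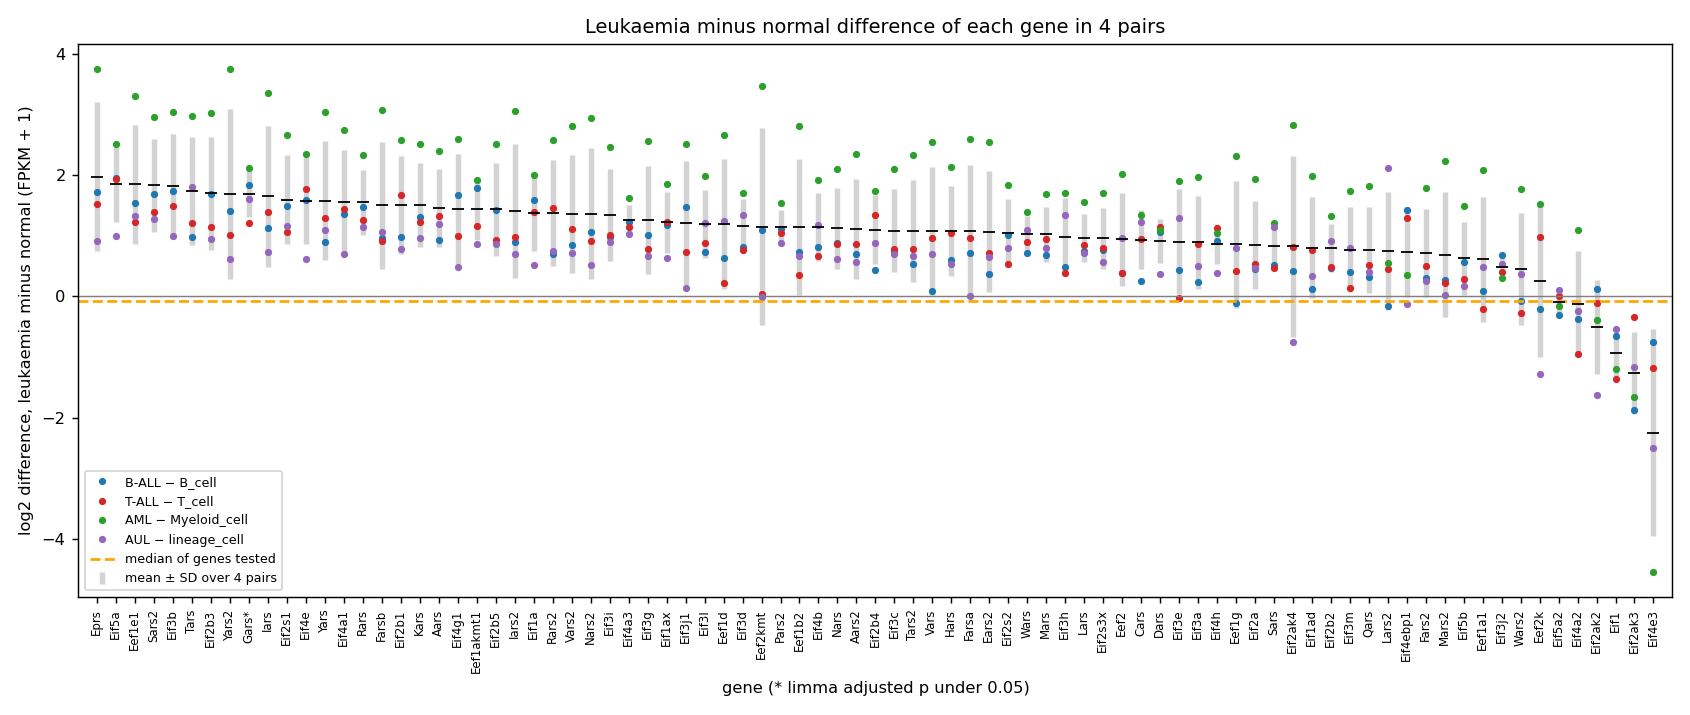
Difference in log2(FPKM + 1), leukaemia minus normal, for 83 of the genes in each of the 4 pairs (coloured points), with the mean (black line) and SD (grey bar), ordered by the mean. The AML points lie above the others for most genes, the dashed line marks the median of -0.08 over genes tested, and the star marks Gars.

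The promoters of the members were read from RefSeq (GRCm38.p6), from 250 bases before to 50 bases after each start site, and 63 of the 84 genes had such a window. They are shown because the members were higher together, and because the E-box CACGTG is the sequence that MYC proteins bind with MAX and TGATGNAAT is a C/EBP-ATF response element. Both strands were searched, and the motifs did not overlap in the genes that held both. CACGTG lay in the window of 14 of 63 members (22.2%), against 11.7% of the genes tested that had a window and 8.09% of all genes with one. By role it was found in 4 of 7 genes of the eIF4 group, in both eIF5A genes, in 4 of 12 cytosolic synthetases and in 0 of 8 genes of eIF2 and its exchange factor. The windows of Eif5a, of 3 genes of the cap-binding complex and of the inhibitor Eef2k are shown, each line giving 46 bases on the gene's own strand, 5′ to 3′, with the E-box in capitals.
Eif5a (chr11:69921435-69921480, minus strand): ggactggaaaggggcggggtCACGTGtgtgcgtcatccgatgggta
Eif4e (chr3:138527184-138527229, plus strand): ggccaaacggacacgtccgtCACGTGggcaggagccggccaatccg
Eif4a1 (chr11:69672587-69672632, minus strand): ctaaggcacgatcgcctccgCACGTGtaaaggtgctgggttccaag
Eif4g1 (chr16:20672653-20672698, plus strand): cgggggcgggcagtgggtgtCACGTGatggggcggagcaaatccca
Eef2k (chr7:120842780-120842825, plus strand): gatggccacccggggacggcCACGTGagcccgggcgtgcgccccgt
The E-box is palindromic. Its first base as shown lies 74 bases before the start site in Eif5a, 64 in Eif4e, 189 in Eif4a1, 54 in Eif4g1 and 31 in Eef2k. Another E-box, not shown, lies 228 bases before the same start site in Eif4e and 178 bases before another start site in Eif5a. The first 4 genes shown had mean log2 differences of 1.85, 1.58, 1.56 and 1.44, while Eef2k, with the same 6 letters, had 0.25. Eif5a2, whose window also holds the E-box, had -0.09. The median of the mean log2 differences was 1.45 for the 14 members with an E-box in the window and 1.12 for the 49 without. By gate these medians were 0.95 and 0.74 in B-ALL, 1.07 and 0.78 in T-ALL, and 2.46 and 2.11 in AML. In AUL they were level, at 0.68 and 0.67. The members with and without an E-box differ in their roles, and the difference between them was not tested.

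TGATGNAAT was found in 3 members with a window (4.76%), the cytosolic synthetases Aars, Gars and Iars, against 0.540% of genes tested and 1.08% of all genes with a window. The element is written on the opposite strand in the lines for Aars and Gars, where capitals mark its 9 letters within 49 bases.
Gars (chr6:55037950-55037998, plus strand): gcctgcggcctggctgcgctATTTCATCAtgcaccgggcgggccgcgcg
Aars (chr8:111033709-111033757, plus strand): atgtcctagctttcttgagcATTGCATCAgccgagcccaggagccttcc
A match is a run of letters in the window and not a measured binding site. The 3 genes had mean log2 differences of 1.46 for Aars, 1.69 for Gars and 1.65 for Iars. The Aars window also holds an E-box, farther from the start site than this element.

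The genes of the first initiation steps were higher in the leukaemias apart from Eif1. Eif1a and Eif1ax, paralogues of the factor eIF1A that helps the small subunit scan, had 55.1 and 62.2 FPKM in B-ALL, 51.2 and 52.4 in T-ALL, 47.8 and 48.4 in AML and 51.0 and 60.2 in AUL. Their normal levels were 17.7 and 27.0 FPKM in B cells, 18.9 and 21.9 in T cells, 11.1 and 12.7 in myeloid cells and 35.1 and 38.5 in lineage-negative cells. Neither gene's groups overlapped. Eif5b, the GTPase that joins the ribosomal subunits, was at 52.0 to 60.4 FPKM in the leukaemias against 17.8 to 53.7 FPKM in the normal populations, and its groups overlapped.

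Eif1 (ENSMUSG00000035530, chr11:100319885-100322096), whose product guards the choice of start codon, went the other way. It had 463 FPKM in B-ALL and 369 in T-ALL, with 404 in AML and 408 in AUL, against 729.6 FPKM in normal B cells, 947 in T cells, 928 in myeloid cells and 595 in lineage-negative cells. All 4 leukaemias lay below every normal population, and the mean log2 difference was -0.94 ± 0.40 (SD over 4 pairs, limma adjusted p = 0.126). Eif1 was thus below its normal level in the leukaemias where its partner eIF1A genes were above theirs.

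All 9 genes of eIF2 and its exchange factor eIF2B lay above every normal population in all 4 leukaemias, as did 16.0% of genes tested. Median log2 ratios were 0.98 in B-ALL and 0.93 in T-ALL, with 1.93 in AML and 0.86 in AUL, and genes at least 2-fold higher numbered 4, 4, 9 and 1 of 9 in those gates, against 18.2%, 22.1%, 43.3% and 13.6% of all genes counted. The AUL count is near that background. The group includes Eif2a, a separate protein that can bind initiator tRNA. Eif2b3, the gamma subunit of eIF2B, was the member of this group with the largest mean difference (1.70 ± 0.94, SD over 4 pairs). It had 31.6, 23.3, 28.4 and 25.9 FPKM in the B-ALL, T-ALL, AML and AUL libraries, against 9.12, 9.99, 2.61 and 12.9 FPKM in normal cells of the B, T, myeloid and lineage-negative gates. Eif2b3 was the lowest of the 5 eIF2B subunits in all 8 libraries. Eif2b1, a regulatory subunit that senses phosphorylated eIF2, had its largest ratio outside the myeloid gate in T-ALL, with 117 FPKM against 35.9 FPKM in normal T cells. Eif2s1, which encodes the alpha subunit phosphorylated under stress, had 69.2, 56.7, 55.9 and 86.7 FPKM in the leukaemias in the same order, against 23.9, 26.6, 7.94 and 38.4 FPKM.

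The 12 listed genes of eIF3, the large scaffold on the small subunit, were higher in the leukaemia in every gate, except Eif3e in T-ALL, which had 219 FPKM against 224 FPKM in normal T cells. Eif3b, a core subunit, stood out in size. It had 553, 444, 461 and 497 FPKM in the B-ALL, T-ALL, AML and AUL libraries, against 164, 157, 55.3 and 248 FPKM in normal cells of the B, T, myeloid and lineage-negative gates, a mean log2 difference of 1.82 ± 0.87 (SD over 4 pairs, limma adjusted p = 0.0553). Several subunits were highest in AUL. Eif3h was at 609.8 FPKM and Eif3d, a subunit that can itself bind caps, at 119 FPKM in AUL, against 239.6 and 46.1 FPKM in normal lineage-negative cells. In the other leukaemias Eif3h was at 317 to 428 FPKM and Eif3d at 58.6 to 77.1 FPKM. The subunits thus did not keep a fixed proportion to each other. Eif3j2, with 2.37 to 3.85 FPKM in the leukaemias, is a near copy of Eif3j1, and the way shared reads were counted is not stated.

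In the eIF4 group, the paralogues parted. Eif4a1, the main helicase that unwinds the mRNA leader, had 966, 1087, 1558 and 1219 FPKM in the B-ALL, T-ALL, AML and AUL libraries, against 377, 399, 232 and 750.1 FPKM in normal cells of the B, T, myeloid and lineage-negative gates. Eif4a2, its close relative, had 512, 431, 697 and 399 FPKM in the leukaemias in that order, against 666, 837, 326 and 470.3 FPKM. Eif4a1 groups did not overlap and Eif4a2 groups did. The ratio of Eif4a1 to Eif4a2 was 1.89 in B-ALL and 2.52 in T-ALL, with 2.24 in AML and 3.06 in AUL, against 0.566 in normal B cells, 0.476 in T cells, 0.713 in myeloid cells and 1.59 in lineage-negative cells. Eif4a1 thus exceeded Eif4a2 in the leukaemias and in lineage-negative cells, and Eif4a2 exceeded Eif4a1 in the other 3 normal populations, in a comparison within each library that its scaling does not touch.

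Eif4e and Eif4e3 parted further. Eif4e, which binds the mRNA cap and limits initiation, had 127, 121, 108 and 106 FPKM in the B-ALL, T-ALL, AML and AUL libraries, against 41.7, 34.9, 20.3 and 68.3 FPKM in the matching normal populations. Eif4e3 (ENSMUSG00000093661, chr6:99625135-99666771), a divergent cap-binding relative, had 5.35 FPKM in B-ALL and 3.37 in T-ALL, with 0.0376 in AML and 2.46 in AUL, against 9.71 FPKM in B cells, 8.96 in T cells, 23.2 in myeloid cells and 18.6 in lineage-negative cells. Every leukaemia lay below every normal population, with a mean log2 difference of -2.25 ± 1.70 (SD over 4 pairs, limma adjusted p = 0.0759). The AML value rests on 4 fragments against 3045 in normal myeloid cells, a 616-fold difference whose 95% interval for counting error runs from 240.4 to 2262. Eif4g1, the scaffold of the cap complex, had 546, 371, 450.2 and 316 FPKM in the leukaemias, against 171, 185, 73.7 and 225 FPKM. Eif4a3, a helicase of the exon junction complex, was the evenest of the group, with log2 ratios of 1.23, 1.15, 1.62 and 1.04.

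**Figure D3:**
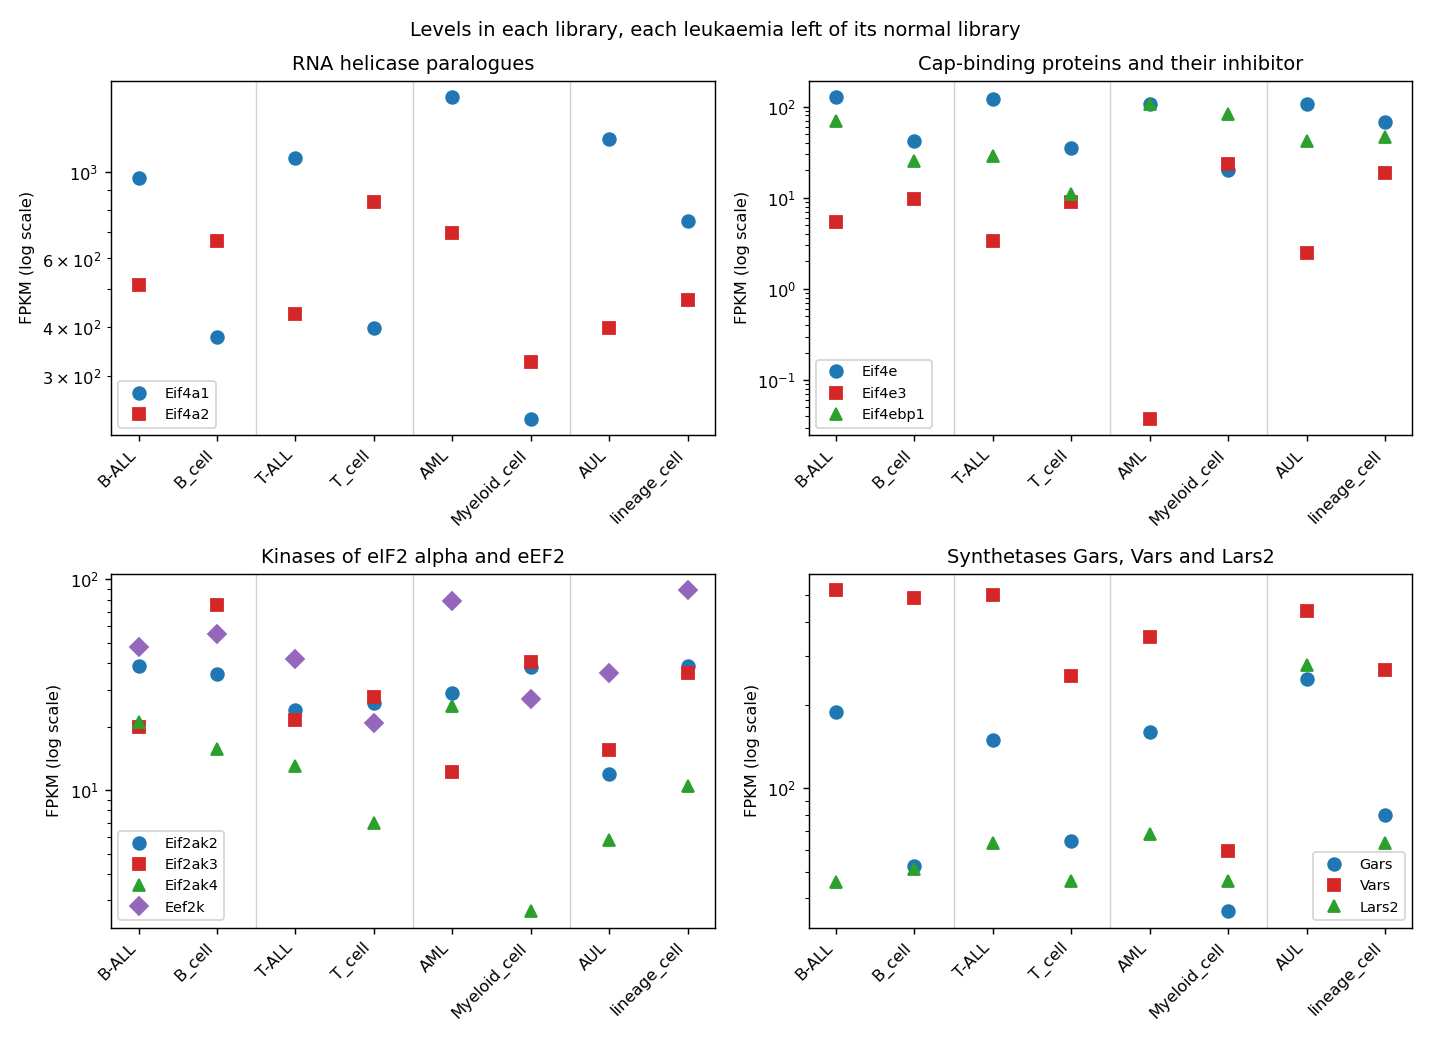
FPKM on log axes in the 8 libraries, each leukaemia left of its normal population, for the Eif4a paralogues, the cap-binding proteins with Eif4ebp1, the kinases that act on eIF2 and eEF2, and 3 synthetases. Eif4a1 lies above Eif4a2 in the leukaemias and lineage-negative cells, Eif4e3 lies at 0.0376 in AML, and Lars2 stands out in AUL at 280.2.

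The 5 listed inhibitors did not move together. Their median log2 ratios were 0.12 in B-ALL and 0.81 in T-ALL, with 0.36 in AML and -1.16 in AUL, and none was higher in all 4 pairs. Over all members the medians were 0.75, 0.91, 2.11 and 0.71 in that order. The inhibitors were thus near the members in T-ALL, below them in B-ALL and well below them in AML and AUL. Eif2ak3 (PERK, the kinase that phosphorylates eIF2 when the endoplasmic reticulum is stressed) had 19.98, 21.6, 12.2 and 15.6 FPKM in the B-ALL, T-ALL, AML and AUL libraries, against 76.0, 27.7, 40.7 and 36.1 FPKM in normal cells of the B, T, myeloid and lineage-negative gates. Its groups did not overlap, and its mean log2 difference was -1.26 ± 0.68 (SD over 4 pairs, limma adjusted p = 0.0791). The difference was small in the T gate and largest in the B gate.

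Eif2ak2 (PKR, the kinase triggered by double-stranded RNA) had 38.7, 24.0, 28.9 and 11.9 FPKM in the B-ALL, T-ALL, AML and AUL libraries, against 35.5, 25.9, 38.4 and 38.8 FPKM in the matching normal populations. Among the leukaemias it was lowest in AUL, and the T gate's libraries were nearly level. Eif2ak4 (GCN2, triggered by uncharged tRNA) had 21.1, 13.02, 25.1 and 5.81 FPKM in the leukaemias, against 15.6, 7.00, 2.65 and 10.5 FPKM. Eef2k, which inactivates eEF2, had 47.5, 42.1, 79.1 and 36.1 FPKM in the leukaemias, against 55.2, 20.8, 26.9 and 89.2 FPKM. It was the single member at least 2-fold higher in one gate (AML, log2 ratio 1.52) and at least 2-fold lower in another (AUL, -1.28), a difference between gates that was not tested.

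Eif4ebp1, the protein that sequesters eIF4E until mTOR phosphorylates it, had 69.4, 28.7, 105 and 42.3 FPKM in the B-ALL, T-ALL, AML and AUL libraries, against 25.4, 11.1, 81.9 and 46.4 FPKM in normal cells of the B, T, myeloid and lineage-negative gates. The ratio of Eif4ebp1 to Eif4e was 0.547, 0.236, 0.976 and 0.401 in the leukaemias in that order, against 0.609, 0.318, 4.02 and 0.680 in their normal populations. It was lower in each leukaemia than in its own normal population, by a small amount in the B and T gates and by most in the myeloid gate. The 2 leukaemias with the highest Eif4ebp1 level, AML and B-ALL, also had the highest ratio among leukaemias.

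Eif5a, which carries the hypusine residue and relieves ribosomes stalled on proline stretches, was among the most abundant members and was at similar levels in the 4 leukaemias. Its level was 2056 FPKM in B-ALL and 1925 in T-ALL, with 2272 in AML and 1939.8 in AUL, against 531 FPKM in normal B cells, 501 in T cells, 395 in myeloid cells and 968 in lineage-negative cells. The groups were far apart, and the mean log2 difference was 1.85 ± 0.63 (SD over 4 pairs, limma adjusted p = 0.0578). Its paralogue Eif5a2 was at 0.0376 to 1.87 FPKM in the leukaemias against 0.152 to 1.88 FPKM in the normal populations, with no shared direction.

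The 8 elongation genes had median log2 ratios of 0.68 in B-ALL and 0.37 in T-ALL, with 2.49 in AML and 0.83 in AUL. Eef1a1, the most abundant member, had 6899, 10244, 7663 and 10317 FPKM in the B-ALL, T-ALL, AML and AUL libraries, against 6522, 11897, 1801 and 7374 FPKM in normal cells of the B, T, myeloid and lineage-negative gates. Its levels overlapped, and it was lower in T-ALL than in normal T cells. Many processed copies of Eef1a1 exist in the genome, so its FPKM is uncertain to the extent that reads were shared. Eef2, the translocase, had 1289, 2070.3, 1235 and 1933 FPKM in the leukaemias, against 987, 1586, 303 and 987 FPKM. Eef1g, a subunit of the exchange factor of eEF1A, had 522 FPKM in B-ALL, set beside 561 in normal B cells, and 1232 FPKM in AUL against 709 in lineage-negative cells.

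The scaffold and the methyltransferases of this group differed more in some gates. Eef1e1 had 84.9, 74.0, 59.0 and 87.2 FPKM in the B-ALL, T-ALL, AML and AUL libraries, against 28.5, 31.0, 5.06 and 34.2 FPKM in the matching normal populations. It did not overlap between the groups, and its mean log2 difference was 1.85 ± 0.98 (SD over 4 pairs, limma adjusted p = 0.0568). Eef1akmt1 had 16.8 FPKM in B-ALL, set beside 4.14 FPKM in normal B cells, and Eef2kmt had 34.0 FPKM in AML against 2.17 FPKM in normal myeloid cells. In AUL the Eef2kmt level of 11.4 FPKM was close to the 11.6 FPKM of lineage-negative cells.

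The 20 cytosolic synthetases were higher in the leukaemia in every gate. Genes at least 2-fold higher numbered 6 of 20 in B-ALL and 10 in T-ALL, with 20 in AML and 9 in AUL, against 18.2%, 22.1%, 43.3% and 13.6% of all genes counted in those gates, and none was 2-fold lower. Their median levels were 82.3, 84.1, 91.4 and 108.6 FPKM in the 4 leukaemias in that order, against 42.7, 41.4, 17.96 and 59.6 FPKM in the normal populations. For 16 of the 20 every leukaemia lay above every normal population, against 16.0% of genes tested. Eprs, which charges both glutamate and proline and anchors the multi-synthetase complex, had 137, 117, 155 and 110.8 FPKM in the leukaemias, against 40.7, 40.2, 10.6 and 58.4 FPKM. Iars, for isoleucine, had 96.1, 85.3, 98.1 and 102 FPKM, against 43.3, 31.8, 8.72 and 60.7 FPKM. Their levels were nearly flat across leukaemias, and their largest differences were against normal myeloid cells, which had the lowest level.

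Some synthetases departed from this. Tars, for threonine, was at 103 FPKM in AUL against 29.0 FPKM in lineage-negative cells, and at 49.9 to 56.0 FPKM in the other 3 leukaemias. Vars, for valine, was the most abundant synthetase in the leukaemias, with 522, 498, 353 and 436 FPKM in the B-ALL, T-ALL, AML and AUL libraries, against 489.5, 255, 59.4 and 268 FPKM in the matching normal populations. Normal B cells already had nearly the B-ALL level of Vars. Qars had the smallest mean difference of the cytosolic enzymes (0.76) and Eprs the largest (1.98).

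The 15 mitochondrial synthetases, which charge tRNAs for the respiratory chain subunits encoded in the organelle, were far less abundant and differed by similar amounts. Their median was 13.8, 21.6, 30.7 and 18.1 FPKM in the B-ALL, T-ALL, AML and AUL libraries, against 10.3, 7.62, 3.60 and 11.3 FPKM in the normal populations. Every leukaemia lay above every normal population for 11 of 15, against 16.0% of genes tested. Sars2, for serine, had 51.9, 41.6, 34.8 and 42.9 FPKM, against 15.5, 15.2, 3.60 and 17.1 FPKM. Yars2, for tyrosine, had 78.2 FPKM in AML against 4.90 FPKM in normal myeloid cells, and 27.1 to 45.4 FPKM in the other leukaemias. Wars2, for tryptophan, differed little outside the myeloid gate, with 7.48 FPKM in B-ALL, set beside 7.93 in normal B cells, and 5.38 FPKM in T-ALL against 6.75 in T cells.

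Lars2 (ENSMUSG00000035202, chr9:123366927-123462666), the mitochondrial leucyl enzyme, was unlike the others. It had 45.7 FPKM in B-ALL and 63.2 in T-ALL, with 68.2 in AML and 280.2 in AUL, against 51.0 FPKM in normal B cells, 46.1 in T cells, 46.0 in myeloid cells and 63.4 in lineage-negative cells. AUL alone stood apart, 4.42-fold above lineage-negative cells with a 95% interval of 4.29 to 4.55 for counting error. Of a list of ribosomal RNA genes and their neighbours, made after the values were seen, Rn18s-rs5 and Gm26917 were also highest in AUL. Rn18s-rs5 was at 1293 FPKM in AUL against 208 FPKM in lineage-negative cells and at 86.4 to 147 FPKM in the other leukaemias, and Gm26917 was at 671 FPKM in AUL against 54.2 FPKM. The mitochondrial ribosomal RNA mt-Rnr2 was at 332 FPKM in AUL against 237 FPKM, but at 402 FPKM in normal B cells and 388 FPKM in normal myeloid cells. Likewise mt-Rnr1 was at 265 FPKM in AUL and 295 FPKM in normal myeloid cells. Rpph1, on the same list, was level over the leukaemias, at 198 to 226 FPKM, but was at 7.56 to 9.59 FPKM in the normal populations. Its mean log2 difference was 4.44 ± 0.21 (SD over 4 pairs, limma adjusted p = 0.00527). What sets Rpph1 apart between leukaemias and normal populations was not tested. The part of these RNAs in the Lars2 value was not tested.

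**Figure D4:**
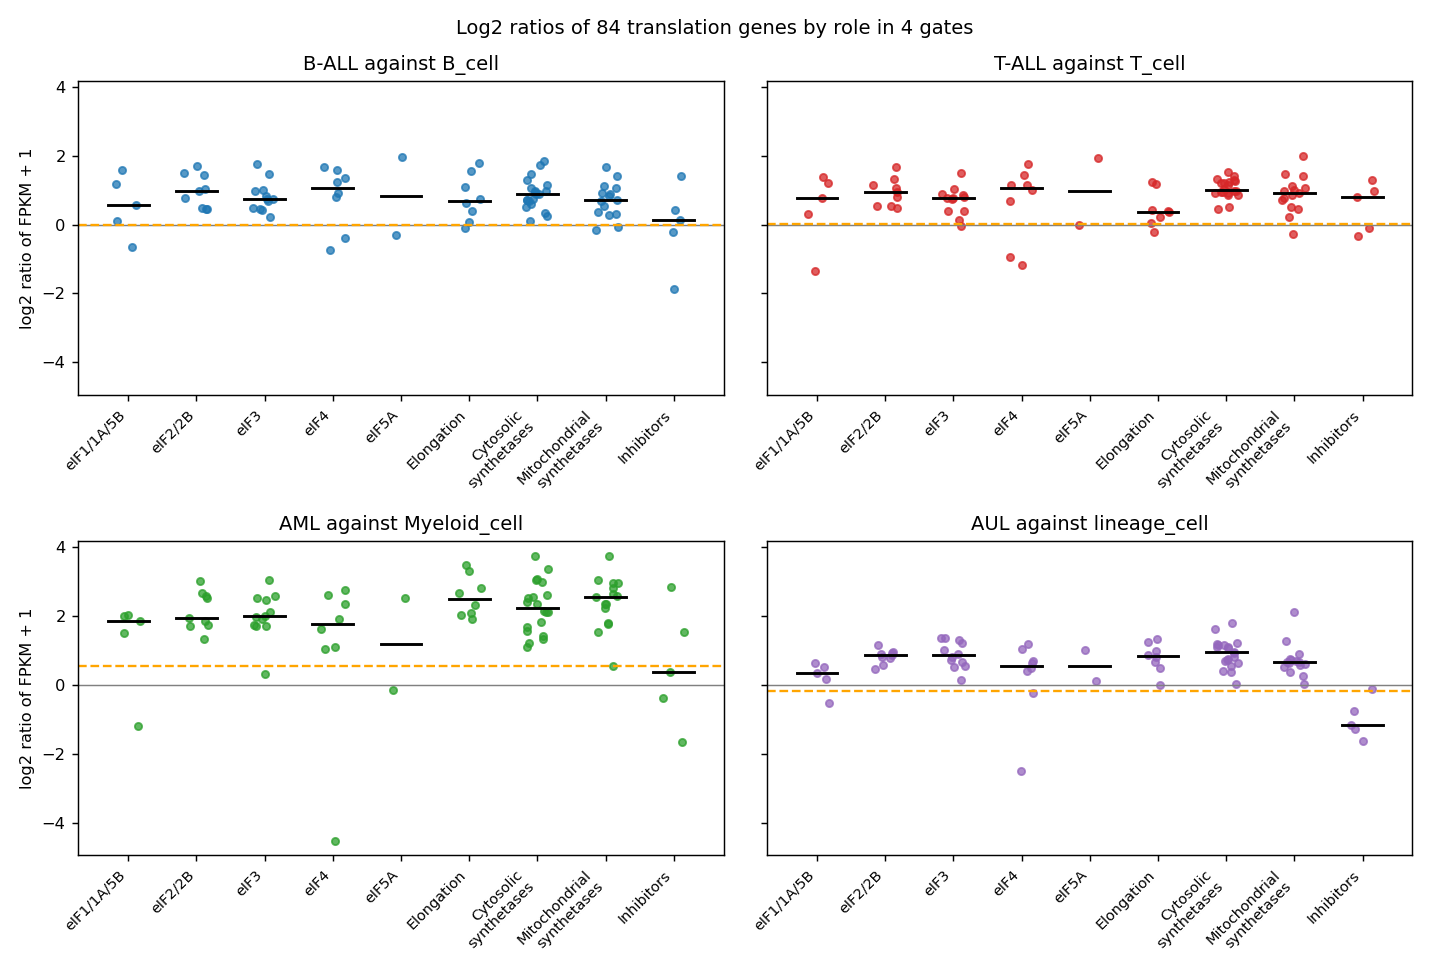
Log2 ratio of FPKM + 1, leukaemia over normal, of the 84 genes (points) by role in each gate, with the role's median over all its plotted genes (black line) and the median over all genes counted (dashed). The core roles lie above the dashed line in every gate, while the inhibitors reach a median of -1.16 in AUL.

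Within gates, a gene was counted as different when its log2 ratio was at least 1 in size and its FPKM at least 1 in the higher library. In B-ALL, 28 of 84 members were at least 2-fold higher and 1 lower, against 18.2% and 21.9% of all genes counted. Eif5a (3.87-fold), Gars (3.60-fold), Eef1akmt1, Eif3b and Eprs (3.37-fold) had the highest log2 ratios, from 1.95 to 1.73, and the lower member was Eif2ak3. The members' median log2 ratio was 0.75 beside -0.02 over all genes. The lowest ratios after Eif2ak3 were those of Eif4e3 (-0.75), Eif1 (-0.65), Eif4a2 (-0.38) and Eef2k (-0.21).

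In T-ALL, 33 of 84 were higher and 2 lower, against 22.1% and 24.0% of genes, with a median of 0.91 beside 0.03. High log2 ratios were those of Eif5a (1.94), Eif4e (1.77), Eif2b1 (1.67) and Eprs (1.52). The 2 lower members were Eif1 and Eif4e3, followed by Eif4a2 (-0.96), Eif2ak3 (-0.35) and Wars2 (-0.28). Dividing-cell markers differed most in this gate, with 4 of 4 at least 2-fold higher and a sum of 624 FPKM in T-ALL against 133 FPKM in normal T cells.

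In AML, 76 of 83 members counted were higher and 3 lower, against 43.3% and 26.7% of genes, with a median of 2.11 beside 0.56. Eprs (14.6-fold), Yars2 (15.9-fold), Eef2kmt, Iars (11.3-fold) and Eef1e1 had the highest log2 ratios, from 3.75 to 3.31. These ratios are of FPKM + 1, whereas the folds are of plain FPKM. By plain FPKM, Ears2 (22.8-fold, 6.56 against 0.288 FPKM) and Nars2 (18.1-fold, 11.7 against 0.646 FPKM) differed more. The lower members were Eif4e3, Eif2ak3 and Eif1. The normal myeloid library differed from AML in makeup as well, since 6 myeloid marker genes summed to 4789 FPKM in AML against 113487 FPKM in normal myeloid cells, with 5 of 6 at least 2-fold lower. None was at 0 apart from a minor additional row of Itgam in AML. S100a8 and S100a9, which encode abundant cytosolic proteins of neutrophils, had 1788 and 2584 FPKM in AML, against 45392 and 65795 FPKM. Their part in the members' values was not tested. Under median-ratio scaling the members' median was 1.28 beside -0.35 over all genes, with 58 of 83 at least 2-fold higher and 4 lower, against 27.3% and 40.9% of all genes counted at that scaling.

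In AUL, 22 of 83 were higher and 4 lower, against 13.6% and 29.5% of genes, with a median of 0.71 beside -0.18. Lars2, Tars (3.56-fold), Gars (3.09-fold), Eif3d and Eif3h had the highest log2 ratios, from 2.13 to 1.34. The 4 lower members were Eif4e3, Eif2ak2, Eef2k and Eif2ak3, of which all but Eif4e3 encode inhibitory kinases. Eif2ak4 followed with a log2 ratio of -0.75. Dividing-cell markers summed to 638 FPKM in AUL against 596 FPKM in lineage-negative cells, and none of the 4 differed 2-fold.

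With normal lineage-negative cells set against every leukaemia in place of the gate's own population, the medians of the gates were closer together. The members' median log2 ratio was 0.52 in B-ALL, 0.59 in T-ALL and 0.54 in AML, beside -0.10, -0.04 and -0.14 over all genes. It was 0.71 in AUL, beside -0.18. Members at least 2-fold higher numbered 12 of 84, 10 of 84 and 12 of 83 in B-ALL, T-ALL and AML, against 11.6%, 14.4% and 11.5% of genes, which puts these counts near the background. Members at least 2-fold lower numbered 1, 2 and 2, against 21.8%, 27.4% and 29.2% of genes. AUL differed in the higher count, with 22 of 83 members against 13.6% of genes. The higher members in AML included Yars2 (log2 ratio 2.10), Eef2kmt (1.48) and Eprs (1.39), and the 2 lower ones were Eif4e3 (-4.24) and Eif2ak3 (-1.49). Lineage-negative cells were the normal population with the highest median of the members, and the AML median of 2.11 against normal myeloid cells compares with 0.54 against them.

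**Figure D5:**
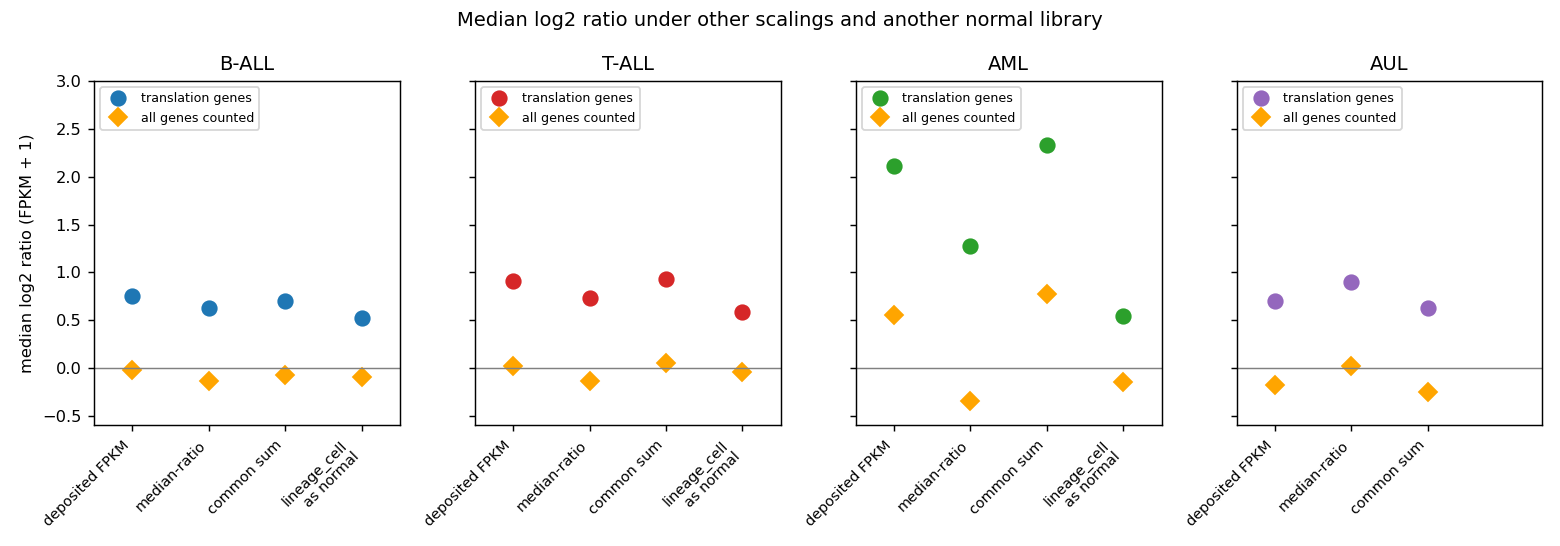
Median log2 ratio of the translation genes counted (circles) and of all genes counted (diamonds) in each gate with the deposited FPKM, after median-ratio scaling, after scaling to a common FPKM sum, and with lineage-negative cells as the normal population (already so in AUL). The AML circle is at 2.11 with the deposited FPKM and at 0.54 with lineage-negative cells, and the circles stay above the diamonds in all settings shown.

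Genes of neighbouring steps were described in the same way. Of 11 listed termination factors and cofactors, 10 were tested and 1 passed limma, Aimp2, a scaffold of the multi-synthetase complex (mean log2 difference 1.93, limma adjusted p = 0.0489). The release factor gene Gspt1 had 195, 163, 157 and 163 FPKM in the B-ALL, T-ALL, AML and AUL libraries, against 55.8, 55.9, 22.2 and 87.7 FPKM in the matching normal populations. Dohh, which completes the hypusine of eIF5A, had 103.5, 113, 131 and 107 FPKM, against 45.8, 44.8, 15.2 and 54.0 FPKM. Pdcd4, an inhibitor of eIF4A, had 65.0 FPKM in T-ALL against 158 FPKM in normal T cells and was higher than normal in AML, at 50.7 against 16.0 FPKM. Of 5 mitochondrial translation factors, 2, 4, 5 and 0 were at least 2-fold higher in the B-ALL, T-ALL, AML and AUL libraries, against 18.2%, 22.1%, 43.3% and 13.6% of all genes counted, and with 5 genes a count of 0 in AUL is near that background.

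Among 15 genes of ATF4, the transcription factor induced when eIF2 is phosphorylated, and its targets, members did not move together. Slc7a5, a transporter of large neutral amino acids, was the 1 that passed limma (mean log2 difference 2.63, adjusted p = 0.0418), with 192, 196, 167 and 176 FPKM in the B-ALL, T-ALL, AML and AUL libraries, against 35.6, 37.5, 7.69 and 61.4 FPKM in the matching normal populations. Psat1 and Phgdh, enzymes of serine synthesis, were also higher in all 4 pairs. Atf4 itself was at 144, 93.6, 275 and 176 FPKM in the leukaemias, against 197, 192, 177 and 181 FPKM. Ppp1r15a, which directs the phosphatase that restores eIF2, had 29.3, 28.2, 38.8 and 24.98 FPKM in the leukaemias, against 125, 217, 46.3 and 88.0 FPKM. The list's median of mean log2 differences was -0.22, beside -0.08 over all genes tested. Of 3 listed kinases that act on the factors, Mknk1, which phosphorylates eIF4E, was lower without overlap between the groups (limma adjusted p = 0.0785). It had 44.5, 45.4, 55.3 and 29.9 FPKM in the leukaemias, against 90.6, 61.8, 171 and 87.3 FPKM. Mknk2 was higher outside the myeloid gate, with 338, 330, 154 and 375 FPKM, against 281, 300, 165 and 174 FPKM. Rps6kb2 had 13.5, 23.8, 36.5 and 17.7 FPKM, against 35.8, 24.7, 24.6 and 30.6 FPKM. The groups overlapped for both Mknk2 and Rps6kb2.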

How the data were processed

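The deposited table holds FPKM computed by the authors for 16434 genes, 1 column per library. Per the labels' protocols, mRNA was enriched on oligo(dT) beads and sequenced as paired 150-base reads on a HiSeq 2000. Per the submitters' processing notes, STAR, HTSeq and edgeR were used with build mm10. Their versions, strandedness and the rule by which genes entered the table are not given in the sources used here, so shares of genes refer to listed genes. The members and lists were chosen with earlier results of these data known.

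Values were compared as log2(FPKM + 1). Fragments were recovered with GENCODE mean transcript lengths, available for 16380 genes. Among single-transcript genes 95.1% to 95.9% of values were whole within 0.02 fragment. Fold intervals (95%, exact binomial) cover counting error only. Over the 4 pairs, limma 3.58.1 in R 4.3.3 (eBayes with a trend, gate as a block) was fitted to 11071 genes that reached 1 FPKM in 2 or more libraries, with Benjamini-Hochberg adjustment, and tested on simulated data. P-values measure the spread between these pairs. The gate pairs the libraries, and nothing says that paired libraries share an animal. Across genes, deviations of paired libraries correlated at 0.37 (B), 0.41 (T), 0.36 (myeloid) and -0.23 (lineage-negative).

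Named genes were those limma called (up to 10 each way), the 5 highest and 5 lowest log2 ratios per gate, the inhibitors, the paralogues and members 2-fold different in both directions. Other members are named to give values within their role. The values of 1 gene that the rule names are not reported here, though it is included in the counts and medians.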

Additional observations from a re-analysis of the deposited data

Results flagged for a closer look

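In groups of 4 libraries a value is listed here when its gap to the nearest other exceeds 0.829 of the log2 range. For genes not picked by their values, chance alone gives this in about 1 of 20 groups. The 25 named genes were examined in both groups, and many were named for extreme ratios in these same libraries. That rate therefore does not hold for them. Among the 4 leukaemias, Tars was high in AUL at 103.1 FPKM and Wars2 was high in B-ALL at 7.48 FPKM. Among the 4 normal populations, the myeloid library was low for Eef1e1 (5.06 FPKM), Eif3d (17.3 FPKM), Tars (6.20 FPKM) and Yars2 (4.90 FPKM). Eef2k is listed because its log2 ratio was 1.52 in AML and -1.28 in AUL, and this difference between gates was not tested.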

How the results depend on the processing

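The count of members that limma called higher was 1 as reported, 7 with a pseudocount of 0.1, 13 with median-ratio scaling, and 0 with no filter on low values, with a common FPKM sum, and with no replicate block (the gate left out of the model). Over all genes the same fits called 140 higher as reported, and 309, 351, 3, 33 and 8 under those settings in the order given. Leaving out each pair in turn gave 0 to 0 members, and 0 to 11 genes in all. In that family of fits no member was called lower. Gars kept its direction in all of them, with a mean log2 difference of 1.45 to 1.86. With a pair left out, Eif4a2 ran from -0.52 to 0.16 (without the T pair) and Eef2k from -0.17 (without the myeloid pair) to 0.76, neither of them called. The median log2 ratio moved to 0.62 (B-ALL), 0.73 (T-ALL), 1.28 (AML) and 0.90 (AUL) with median-ratio scaling. It moved to 0.70 (B-ALL), 2.33 (AML) and 0.63 (AUL) with a common FPKM sum, to 2.22 (AML) with a pseudocount of 0.1, and to 0.52 (B-ALL), 0.59 (T-ALL) and 0.54 (AML) against lineage-negative cells. Counts of members at least 2-fold higher moved to 12, 10 and 12 in B-ALL, T-ALL and AML against lineage-negative cells, and to 21 in T-ALL with median-ratio scaling. The cause of these shifts was not tested. Members whose groups did not overlap numbered 52 to 61 higher and 3 lower over both scalings and each pair left out, alternatives chosen after seeing the data, against 15.1% to 23.2% of genes tested higher and 9.24% to 19.4% lower. Depth limits Eif4e3 and Eif5a2 in AML, at 4 fragments for Eif4e3, while the median member rests on at least 1618.5 fragments in each library.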
